A study of Drosophila melanogaster with 10 samples.

Results

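The genes described here control the passage from G1 into S phase or build the machinery that copies DNA. They were listed by symbol (38 genes), and a listed gene was kept when its row had a value of at least 10 in at least 2 libraries. Of the 38, 36 met this rule among the 10453 genes of the table that did so, out of 13041 genes in all; lat and dUTPase were not analysed here. The tissue was the wing imaginal disc, the larval epithelium that gives rise to the adult wing and notum, from Drosophila melanogaster of genotype yw. All 10 libraries came from this genotype and no other treatment or allele is given. Discs were collected at 6, 15, 25, 35 and 48 h after the molt into the third larval instar, the 48 h larvae being at the wandering stage. There were 2 libraries per time, called A and B below; the labels do not say whether they came from separate cultures, and the p-values below cover the difference among the libraries alone, which may be technical.

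Before S phase the origin recognition complex sits on DNA and, with Cdc6 and the Cdt1 protein that fly dup encodes, loads the ring-shaped MCM helicase; geminin binds Cdt1 and blocks this loading until the next cycle. Cyclin D with Cdk4 and cyclin E with Cdk2 drive cells into S phase, partly by releasing the transcription factor E2f1 and its partner Dp from the retinoblastoma protein Rbf, and the GINS complex then helps to turn the loaded helicase into a moving fork. Disc cells divide through most of the third instar and slow as it ends.

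Values are the deposited signal, that is, reads assigned to a gene divided by a size factor of the library. The libraries held 16814685 to 38003104 reads, and 1 read was worth a signal of 0.596 to 1.40. Changes are differences of log2(signal + 1) with the standard error (SE) of a limma fit over all 10453 genes, and a gene passed the test at a Benjamini-Hochberg adjusted p under 0.05. The defining wing disc markers vg, nub, ap, sd and en were present in every library, with a summed signal of 18784 to 39752. Their sum rose with time, to 36742 and 38065 at 35 h and 37496 and 39752 at 48 h, against 19362 and 18784 at 6 h. Markers of other tissues were also present, at levels that varied with time. Gut protease genes summed to 152 and 163 at 48 h, against 136334 and 56143 at 6 h, and the muscle actin gene Act57B was at 4609 and 3316 at 48 h, against 128385 and 180117 at 6 h. The 5 haemocyte markers summed to 7531 and 10472 at 48 h, against 111999 and 173190 at 6 h, and fat body markers ranged from 33291 to 2500457, highest at 25 h. Of the 5 glue genes of the salivary gland, Sgs3, Sgs5, Sgs7 and Sgs8 were at 0 in some libraries, and the list reached 7136. Neuronal and glial markers summed to 1109 to 3268, and zfh1 and hbs, the 2 adult muscle precursor markers measured, to 2598 and 2480 at 48 h, against 815 and 926 at 6 h. In such bulk samples fewer cells of a type and less RNA per cell cannot be told apart, and the part of these tissues in the results below was not tested.

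On the deposited scale, transcripts of the replication programme varied little over the instar, with dap and Cdk4 as the members of widest range. Over the 5 times the highest time mean of a gene exceeded the lowest by a median factor of 1.27 among the 36 genes (1.12 for PCNA to 2.42 for dap), against a median of 1.9 over all genes tested. This factor was below the median of all genes for 35 of the 36. It reached 1.5 in 5 of them (dap, Cdk4, Psf2, Psf1 and E2f2), while 70.7% of all genes did so. Without the 15 h libraries the factors ran from 1.06 to 2.42, again with a median of 1.27, against 1.79 for all genes, and 4 of the 36 reached 1.5, against 66.2% of all genes. All 36 were well covered, with 94 to 10326 reads per gene and library. The full set was not matched to them in level. Scaled by library totals, the median log2 change at 35 h against 6 h was 0.54 over the 36 genes, all of them above 0. Over all genes tested it was 0.25. On the deposited scale these medians were 0.21 and -0.07.

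**Figure D1:**
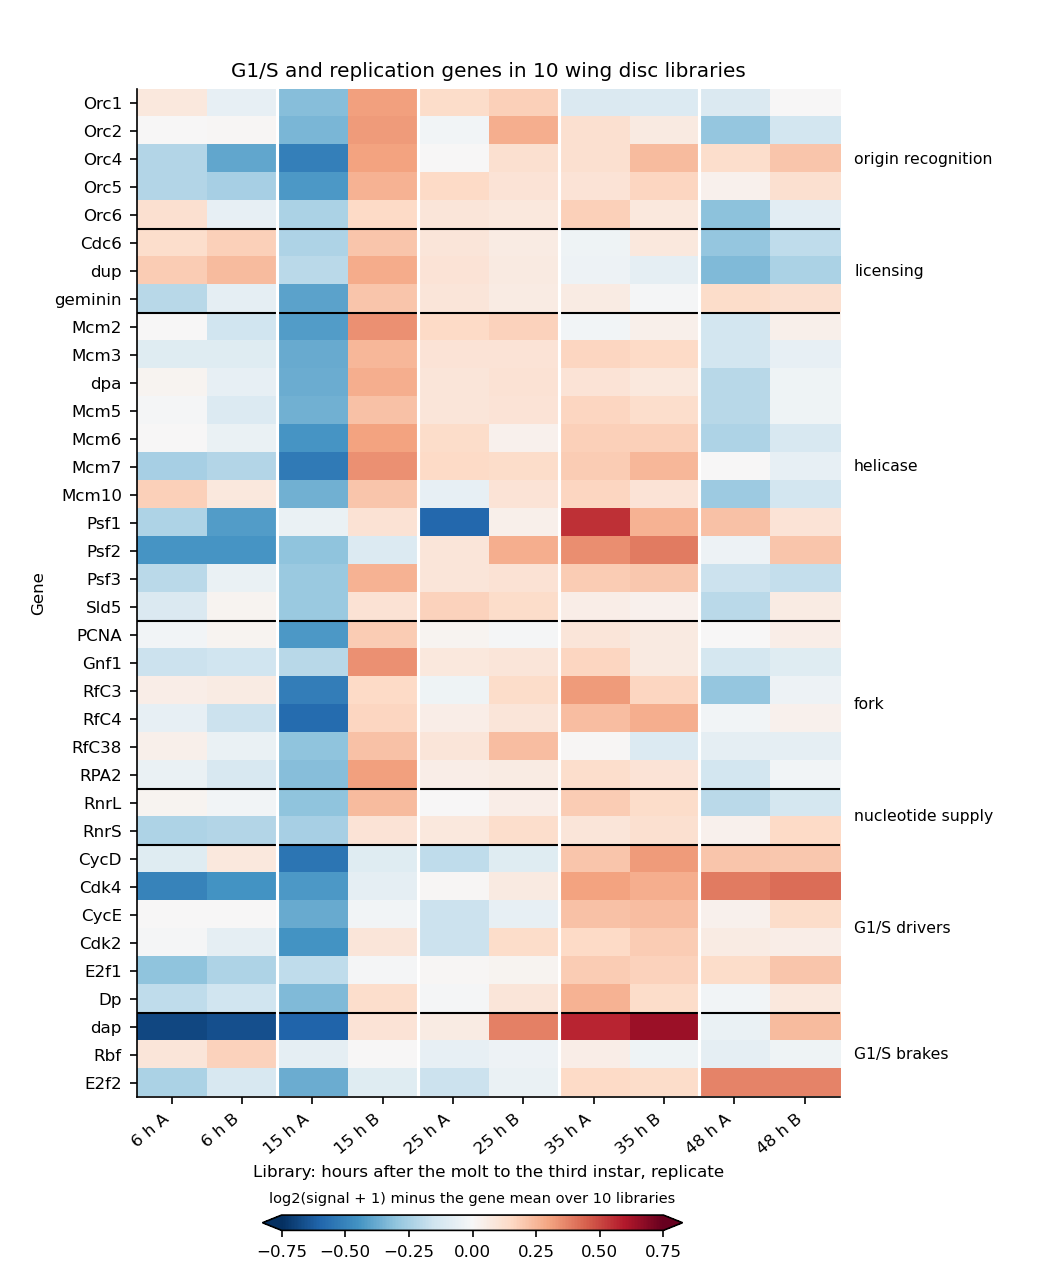
Each row is a gene, grouped by role, and each column a library, in order of hours after the molt; colour gives log2(signal + 1) minus the gene's mean over the 10 libraries. Library 15 h A is blue in every row while 15 h B is mostly red, and dap, Cdk4 and Psf2 show the widest spread between early and late columns.

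The 2 libraries of 15 h stood apart from each other for these genes. Their summed signal over the 36 was the lowest of the 10 libraries in A (61659) and the highest in B (89083). At 15 h all 36 were lower in replicate A than in replicate B, by 0.08 (Rbf) to 0.87 (Mcm7) on the log2 scale, and by a median of 0.55, whereas the median difference over all genes tested was 0.04, A being higher. At the other times the median difference of A from B over the 36 genes lay between -0.09 and 0.01. The gut markers accounted for 1.15% of reads in 15 h A, against 0.0247% in 15 h B, and the wing disc markers for 0.0531% in A and 0.107% in B; the part of this in the difference was not tested. The fit shares 1 spread per gene over all times, so the gap at 15 h widens the error of every comparison, and results are therefore also given without the 15 h libraries. A limma fit that keeps all 10 libraries and gives less weight to times whose 2 libraries differ more is called the weighted fit below. Both libraries of a time got the same weight in it, so it cannot tell which of the 2 fits poorly. With a weight of 0.127 at 15 h it largely sets that time aside, so it is not independent of the fit without 15 h. Other limma values with all 10 libraries weight them equally.

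Between consecutive times none of the 36 genes passed the test. From 15 h against 6 h to 48 h against 35 h the counts were 0, 0, 0 and 0 with limma, with edgeR and with DESeq2, and the genes with an unadjusted limma p under 0.05 numbered 0, 2, 3 and 0. Of all genes tested, 4.22% passed at 15 h against 6 h, 0.134% at 25 h against 15 h, 3.94% at 35 h against 25 h and 0.392% at 48 h against 35 h. The first steps turned on which 15 h library was kept. With 15 h B alone, 20 of the 36 were higher at 15 h than at 6 h, when 18.8% of all genes were; with 15 h A alone, 19 were lower, when 9.61% of all genes were. PCNA, Mcm2, Mcm3, dpa, Mcm5, Mcm6, Mcm7, Orc1, RPA2, RfC4, RnrL and geminin were in both sets, with opposite signs. With 15 h A alone, 32 were higher at 25 h than at 15 h, against 20.9% of all genes, and with 15 h B alone none was.

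With both 15 h libraries left out, genes passed in the later steps. At 35 h against 25 h, CycD, CycE, Cdk4, E2f1 and E2f2 were higher, by 0.16 to 0.41 on the log2 scale, and Orc1 was lower by 0.27, a direction that turned to 0.14 with all 10 libraries scaled by library totals; 10.0% of all genes were higher and 13.8% lower in the fit without 15 h. The 5 that rose are G1/S control genes, while Cdk2, Dp, dap and Rbf, also of that kind, did not pass. As a count, 5 of 36 is close to the 10.0% of all genes. At 48 h against 35 h, no gene of the 36 was higher, against 4.73% of all genes, and 8 were lower, against 5.28%: Mcm3, Mcm6, Mcm7, Mcm10, Gnf1, RfC4, RnrL and dup, by 0.23 to 0.35. Those 8 are helicase, clamp loader, nucleotide supply and licensing genes. With all 10 libraries the same step had a median change of -0.20 over the 36 genes, with 31 of them below 0, and -0.02 over all genes tested, with 5487 of 10453 below 0.

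Against 6 h, a few of the genes changed. At 35 h, 5 of the 36 genes had risen (dap, Psf2, Cdk4, Psf1 and E2f1) and none had fallen, while 21.2% of all genes were higher and 24.4% lower. At 48 h, 5 had risen (Cdk4, dap, E2f2, Psf2 and E2f1) and dup had fallen, while 22.3% of all genes were higher and 26.8% lower. Both comparisons share the 6 h libraries. A moderated F test over the 5 times called 5 of the 36 (Cdk4, E2f1, E2f2, Psf2 and dap), against 38.4% of all genes. The median change over the 36 was 0.21 at 35 h and 0.02 at 48 h, both against 6 h, and over all genes it was -0.07 and -0.10. Without the 15 h libraries, 22 of the 36 were higher and 1 lower at 35 h than at 6 h, against 30.1% and 36.9% of all genes, and 12 were higher and 5 lower at 48 h than at 6 h, against 30.7% and 37.8%. Genes that passed there but not with all 10 libraries were higher at 35 h for CycD, CycE, Dp, E2f2, Mcm3, Mcm5, Mcm6, Mcm7, Psf3, Orc4, Orc5, Gnf1, RfC4, RPA2, RnrL, RnrS and geminin, and lower for dup. At 48 h they were higher for CycD, Dp, Mcm7, Orc4, Orc5, RnrS and geminin, and lower for Cdc6, Mcm10, Rbf and RnrL. Scaling by library totals, with all 10 libraries, turned the direction of dup at 35 h, giving 0.06 in place of -0.27, and of Rbf and RnrL at 48 h (given below), and left Cdc6 at -0.09 and Mcm10 at -0.03 at 48 h.

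**Figure D2:**
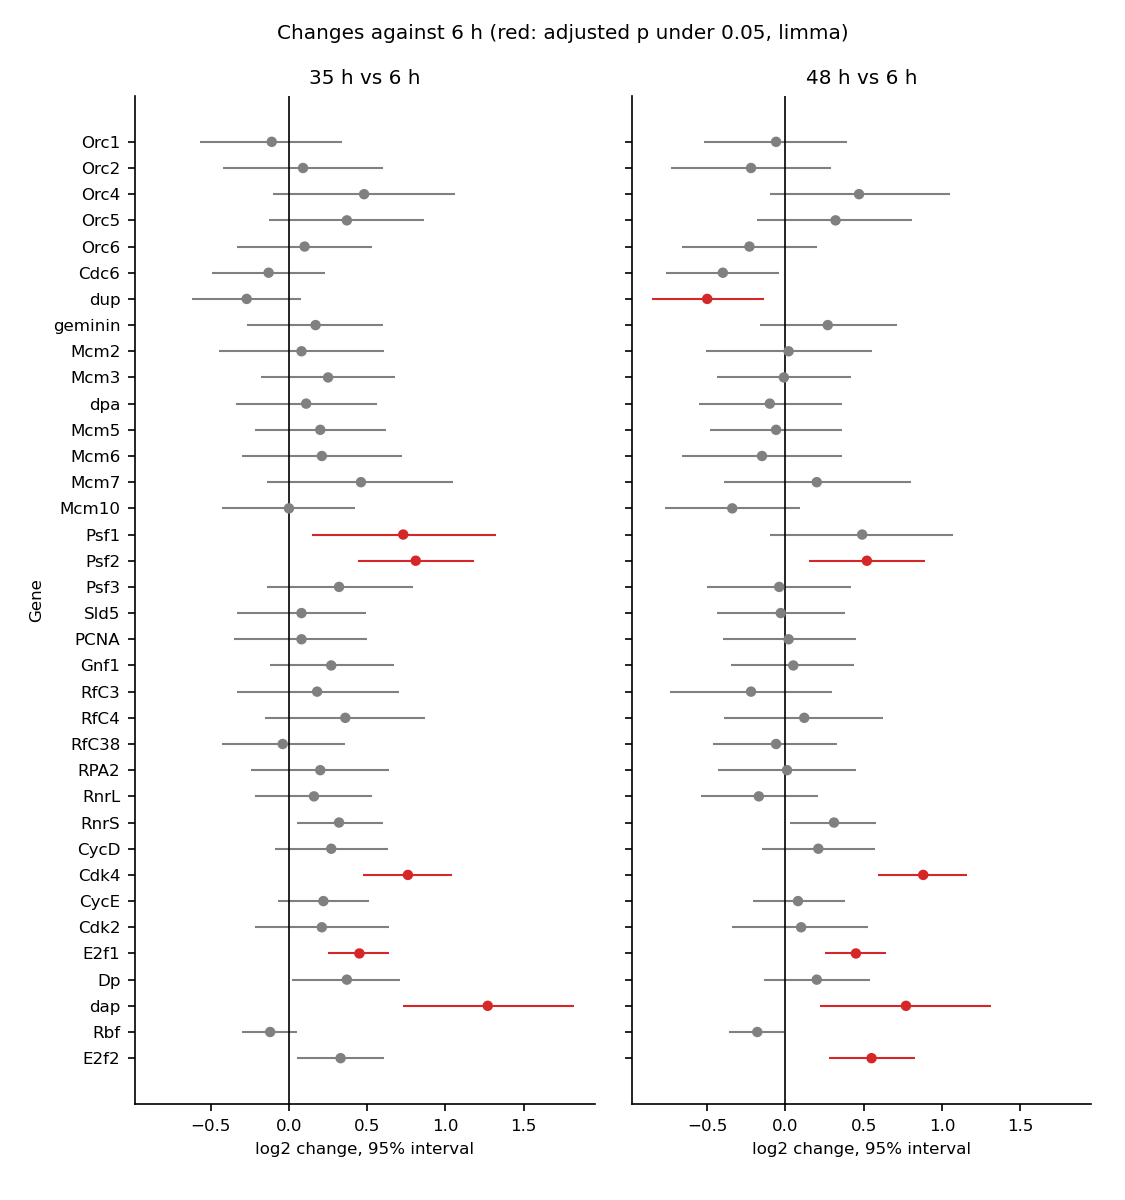
Points are log2 changes of the 36 genes at 35 h (left) and 48 h (right), each against 6 h, with 95% intervals of the limma fit; red marks an adjusted p under 0.05. At 35 h 5 genes are red and all lie right of 0, and at 48 h 5 red genes lie right of 0 and dup lies left of it.

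The brakes on G1/S held the widest change. The gene dap, whose product dacapo inhibits cyclin E with Cdk2 (chromosome arm 2R, 9712321 to 9716256, plus strand, BDGP6.54 annotation), had a signal of 1797 and 1815 at 6 h, 1900 and 3070 at 15 h, 2994 and 3734 at 25 h, 4253 and 4489 at 35 h, then 2772 and 3401 at 48 h. Every 35 h library lay above every library of the other times, and both 48 h libraries lay above both 6 h libraries. Its change was 1.27 (SE 0.23, limma adjusted p = 0.00655) at 35 h against 6 h, which held in all 19 alternative settings, and 0.77 (adjusted p = 0.0306) at 48 h against 6 h. The 48 h call was lost when any single 6, 35 or 48 h library was left out (adjusted p 0.0553 to 0.159) and with quantile normalization (0.0509).

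E2f2, the E2F factor that represses genes in flies (arm 2L, 21154293 to 21156749, minus strand), had a signal of 842 and 917 at 6 h, 773 and 936 at 15 h, 891 and 960 at 25 h, 1107 and 1102 at 35 h, then 1289 and 1293 at 48 h. The 48 h libraries were the highest of the 10, followed by those of 35 h. The change at 48 h against 6 h was 0.55 (SE 0.12, adjusted p = 0.00886), with 19.9% of its exon bases shared with Mpp6 on the other strand. Leaving out 6 h A, 48 h A or 48 h B ended this call (adjusted p 0.057, 0.0542 and 0.0579), and scaling by library totals gave 0.86 (adjusted p = 0.0341). Rbf, which encodes the fly retinoblastoma protein, averaged 2493 ± 45.0 at 48 h and 2832 ± 111 at 6 h (SD, n = 2 each). The libraries of these times did not overlap, and the difference of -0.18 missed the threshold (adjusted p = 0.0761). It passed without the 15 h libraries (0.0180), in the weighted fit and with DESeq2, and it was 0.13 with library total scaling.

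Among the drivers, Cdk4 and E2f1 rose and the cyclin genes did not pass the test. The kinase gene Cdk4 (arm 2R, 16579470 to 16585448, plus strand) had a signal of 1286 and 1332 at 6 h, 1356 and 1737 at 15 h, 1839 and 1918 at 25 h, 2240 and 2192 at 35 h, then 2381 and 2431 at 48 h. Each pair from 25 h on lay wholly above the pair before it. Its change was 0.76 (SE 0.12, adjusted p = 0.00438) at 35 h against 6 h and 0.88 (SE 0.12, adjusted p = 0.00186) at 48 h against 6 h, and both held in all 19 alternatives. The activating factor gene E2f1 (arm 3R, 21620304 to 21660871, minus strand) had 3868 and 4062 at 6 h, 4173 and 4754 at 15 h, 4802 and 4837 at 25 h, 5448 and 5356 at 35 h, then 5275 and 5537 at 48 h. The 35 h and 48 h libraries overlapped each other and lay above all earlier ones. Its change was 0.45 (SE 0.08) in both comparisons, with an adjusted p of 0.00732 at 35 h and 0.00571 at 48 h against 6 h. The 35 h call was lost without 35 h A (0.0514), and library total scaling gave 0.78 at 35 h and 0.76 at 48 h (adjusted p = 0.0337 and 0.0328).

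CycD, which encodes the partner of Cdk4, had 1668 and 1868 at 6 h, 1211 and 1660 at 15 h, 1550 and 1658 at 25 h, 2055 and 2210 at 35 h, then 2045 and 2032 at 48 h. Its 35 h and 48 h libraries lay above all earlier ones, with a change of 0.21 (95% interval -0.15 to 0.57) at 48 h against 6 h. CycE, whose product activates Cdk2, was highest at 35 h, with 2490 ± 13.8, against 2137 ± 0.531 at 6 h (SD, n = 2 each), a change of 0.22 (interval -0.07 to 0.51). Cdk2 itself had a difference of 0.10 (interval -0.34 to 0.53) at 48 h against 6 h; 43.9% of its exon bases overlap CG17267 on the other strand. Dp, the DNA-binding partner of both E2F proteins, averaged 6676 ± 380 at 35 h and 5173 ± 82.5 at 6 h (SD, n = 2 each) and missed the threshold with a change of 0.37 (adjusted p = 0.0745). Without the 15 h libraries CycD, CycE and Dp passed at 35 h against 6 h (adjusted p = 0.0169, 0.0152 and 0.00269).

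**Figure D3:**
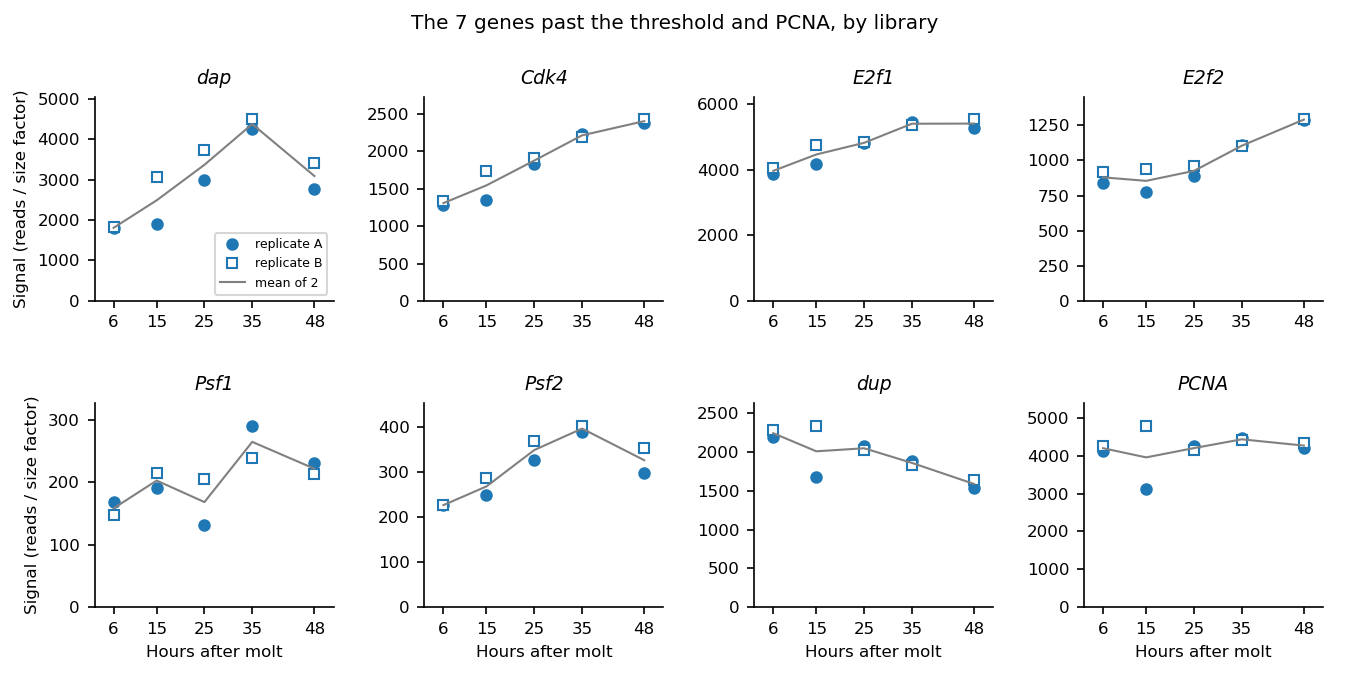
Signal of the 7 genes past the threshold at 35 h or 48 h against 6 h and, for comparison, of PCNA, by hours after the molt; filled circles are replicate A, open squares replicate B, and lines join the means of 2. Signal of dap peaks at 35 h (4253 and 4489), Cdk4 and E2f2 end highest at 48 h, dup ends lowest there, and PCNA departs from a near-level course at 15 h (3116 and 4791).

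Of the 3 licensing genes dup fell, and Cdc6 and geminin did not pass the test. The gene dup, which encodes the loader Cdt1 (arm 2R, 15376619 to 15380988, minus strand), had a signal of 2199 and 2286 at 6 h, 1679 and 2340 at 15 h, 2073 and 2024 at 25 h, 1884 and 1836 at 35 h, then 1536 and 1641 at 48 h. Both 48 h libraries lay below all the others. The change at 48 h against 6 h was -0.50 (SE 0.15, adjusted p = 0.0304). It was lost when any single 6, 25, 35 or 48 h library was left out (adjusted p 0.0506 to 0.138), with edgeR (-0.41, 0.121), with quantile normalization (-0.44, 0.15) and with library total scaling (-0.19, 0.604). Without the 15 h libraries its adjusted p was 0.000321. Cdc6, the other loader, averaged 643 ± 31.0 at 48 h and 846 ± 20.7 at 6 h (SD, n = 2 each), without overlap, and its change of -0.40 missed the threshold (adjusted p = 0.0665). The inhibitor gene geminin averaged 2166 ± 24.3 at 48 h and 1794 ± 123 at 6 h (SD, n = 2 each), a change of 0.27 (interval -0.16 to 0.71). Per length, geminin was the more abundant of the pair at each time, and the ratio of geminin to dup was higher at each later time.

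That ratio is taken within a library and so does not depend on scaling. Per kb of exon, geminin over dup was 2.30 and 2.43 at 6 h, 2.64 and 2.90 at 15 h, 3.0 and 3.01 at 25 h, 3.24 and 3.17 at 35 h, then 4.20 and 3.87 at 48 h. The pairs of values did not overlap from one time to the next, and the mean at 48 h was 1.71 times that at 6 h. Likewise, dap over CycE was 1.68 and 1.69 at 6 h, 2.31 and 2.91 at 15 h, 3.14 and 3.63 at 25 h, 3.42 and 3.58 at 35 h, then 2.53 and 2.89 at 48 h. This ratio of an inhibitor to its target was highest at 25 h and 35 h and lowest at 6 h.

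The ratio of E2f1 to Rbf, an activator to its restrainer, was 1.2 and 1.23 at 48 h, against 0.788 and 0.783 at 6 h, with intermediate values at 15, 25 and 35 h. Between the 2 E2F genes, E2f1 over E2f2 was 1.43 and 1.38 at 6 h, 1.67 and 1.58 at 15 h, 1.67 and 1.56 at 25 h, 1.53 and 1.51 at 35 h, then 1.27 and 1.33 at 48 h. Cdk4 over CycD was 1.16 and 1.19 in the 48 h libraries, against 0.768 and 0.71 in those of 6 h. At 15 h, where the signals of the 2 libraries differed most, these ratios in A were 0.792 to 1.07 times those in B. No test was run on ratios, with 2 values per time.

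**Figure D4:**
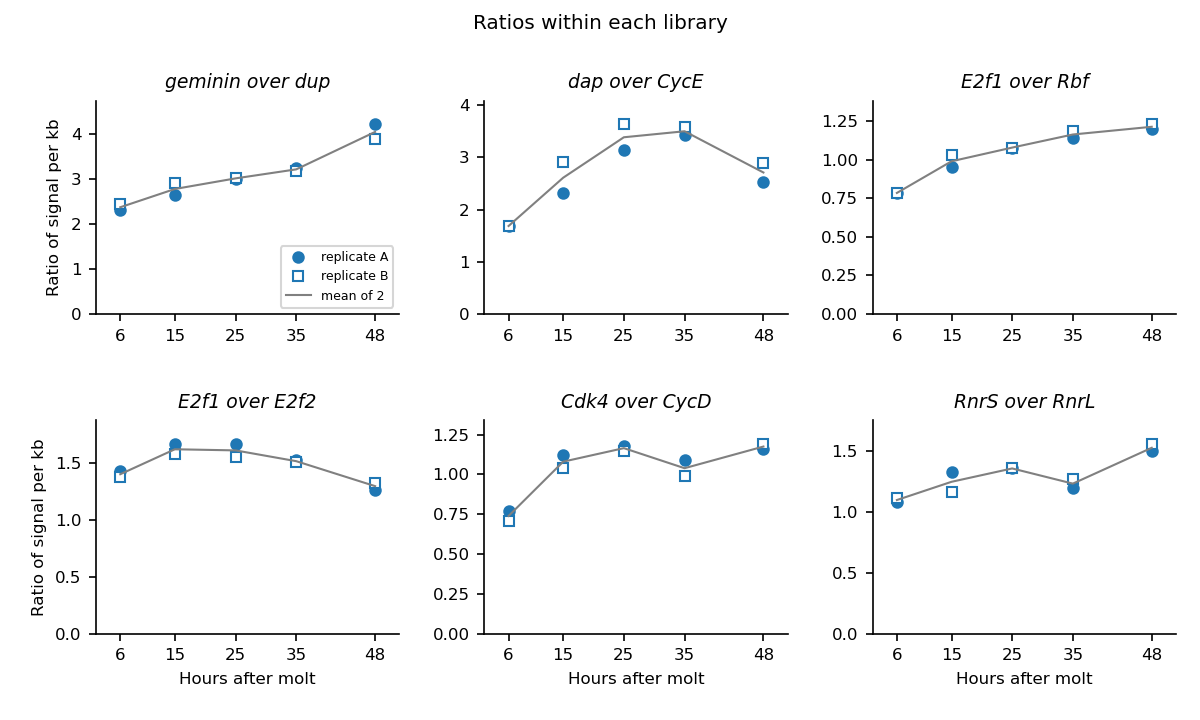
Ratios of signal per kb of exon between gene pairs, within each library, by hours after the molt; filled circles are replicate A, open squares replicate B, and lines join the means of 2. Geminin over dup reaches 4.20 and 3.87 at 48 h, dap over CycE is highest at 25 h and 35 h, and E2f1 over E2f2 is lowest at 48 h.

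No gene of the MCM helicase passed with all 10 libraries weighted equally. In the weighted fit Mcm3, Mcm6 and Mcm7 were higher at 35 h than at 6 h, and Mcm3, Mcm5, Mcm6 and Mcm7 were lower at 48 h than at 35 h. Its subunit genes Mcm2, Mcm3, dpa (which encodes Mcm4), Mcm5 and Mcm6 had time means whose highest exceeded the lowest by factors of 1.16 (dpa) to 1.28 (Mcm6). Mcm2 averaged 3526 ± 316 at 48 h and 3466 ± 258 at 6 h (SD, n = 2 each), a change of 0.02 (interval -0.51 to 0.55). Mcm6 averaged 3754 ± 196 at 48 h and 4792 ± 1.48 at 35 h (SD, n = 2 each), the widest difference between these times among the 5. The 5 genes kept close proportions: per kb, Mcm3, Mcm5, Mcm6 and dpa stood at 0.921 to 1.38 times Mcm2 in all 10 libraries. Across the 10 libraries, which share their scaling, the correlation of log2 values between pairs of these 5 genes had a median of 0.96, and 0.918 over the 9 libraries without 15 h A; over all pairs of the 36 genes the medians were 0.636 and 0.452. Mcm7, the sixth subunit gene, was left out of these proportions and correlations, and 81.7% of its exon bases overlap a gene on the other strand. Its signal per kb ran from 260 to 476, against 943 to 1595 for Mcm2. Mcm7 had a difference of 0.46 (interval -0.14 to 1.05) at 35 h against 6 h and passed without the 15 h libraries (limma adjusted p = 0.000771). Mcm10, a helicase-associated fork factor, averaged 1306 ± 79.5 at 48 h and 1653 ± 81.2 at 6 h (SD, n = 2 each); its change of -0.34 missed the threshold (adjusted p = 0.154) and passed without the 15 h libraries (0.00847).

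Of the 4 GINS genes, Psf1 and Psf2 rose and Psf3 and Sld5 did not pass. Psf2 (arm 2L, 4386182 to 4387356, minus strand) had a signal of 226 and 226 at 6 h, 249 and 286 at 15 h, 327 and 369 at 25 h, 389 and 402 at 35 h, then 298 and 353 at 48 h. Its 35 h libraries were the highest and its 6 h libraries the lowest. The change was 0.81 (SE 0.16, adjusted p = 0.00828) at 35 h and 0.52 (adjusted p = 0.0302) at 48 h, each against 6 h. The 35 h call ended without 35 h B (0.0576), and the 48 h call without any single 6, 35 or 48 h library (0.0569 to 0.179) or with library total scaling (0.83, adjusted p = 0.0569); quantile normalization moved the changes to 1.76 and 1.55.

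Psf1 (arm 3L, 1246986 to 1247677, minus strand) averaged 158 ± 14.5 at 6 h (SD, n = 2) and had 191 and 215 at 15 h, 132 and 205 at 25 h, 291 and 239 at 35 h, then 231 and 213 at 48 h. Both 35 h libraries lay above all the others, and the 25 h pair was widely split. Its change of 0.73 (SE 0.25, limma adjusted p = 0.0473) at 35 h against 6 h held in 8 of 19 alternatives. The call was lost without any single 6, 35 or 48 h library and with the replicate block. It was also lost with edgeR (adjusted p = 0.0533), a pseudocount of 10 (0.0517), no filter (0.0560) and library total scaling (1.06, 0.0595). With quantile normalization the change was 1.89. Psf3 had a difference of 0.32 (interval -0.14 to 0.79) and Sld5 of 0.08 (interval -0.33 to 0.49) at 35 h against 6 h.

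At the fork, no gene passed with all 10 libraries weighted equally. In the weighted fit Gnf1, RfC4 and RPA2 were higher at 35 h than at 6 h, and Gnf1, RfC3 and RfC4 were lower at 48 h than at 35 h. PCNA, the sliding clamp that holds the polymerase on DNA, had a signal of 4134 and 4257 at 6 h, 3116 and 4791 at 15 h, 4252 and 4145 at 25 h, 4459 and 4402 at 35 h, then 4194 and 4336 at 48 h. Outside 15 h its libraries spanned 4134 to 4459, and the change at 48 h against 6 h was 0.02 (interval -0.40 to 0.45). Of the genes for the clamp loader, RfC4 had the widest range of time means (a factor of 1.33, against 1.32 for RfC3; without 15 h, 1.28 against 1.32). Its signal was 1914 and 1776 at 6 h, 1327 and 2223 at 15 h, 2065 and 2113 at 25 h, 2334 and 2398 at 35 h, then 1963 and 2032 at 48 h. Its 35 h pair lay above all other libraries, with a change of 0.36 (adjusted p = 0.199, and 0.00154 without the 15 h libraries) at 35 h against 6 h. Gnf1, the large loader subunit, had a difference of 0.27 (interval -0.12 to 0.67) in that comparison, RfC3 of 0.18 (interval -0.33 to 0.70) and RfC38 of -0.04 (interval -0.43 to 0.36). RPA2, a subunit of the protein that coats single-stranded DNA, averaged 1999 ± 120 at 48 h and 1988 ± 70.9 at 6 h (SD, n = 2 each).

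Both genes of ribonucleotide reductase, the enzyme that makes deoxyribonucleotides, missed the threshold in the limma fit with all 10 libraries weighted equally. RnrS passed with DESeq2 and in the weighted fit, at 35 h and at 48 h against 6 h. RnrL, the large subunit, had a signal of 5702 and 5543 at 6 h, 4553 and 6607 at 15 h, 5608 and 5820 at 25 h, 6381 and 6161 at 35 h, then 4893 and 5121 at 48 h. Outside 15 h it was highest at 35 h and lowest at 48 h, and at 48 h against 6 h its difference was -0.17 (adjusted p = 0.404, and 0.0192 without the 15 h libraries). RnrS, the small subunit, had 3808 and 3837 at 6 h, 3754 and 4764 at 15 h, 4704 and 4885 at 25 h, 4734 and 4840 at 35 h, then 4539 and 4930 at 48 h. Its difference was 0.31 (adjusted p = 0.0631, and 0.00236 without the 15 h libraries) at 48 h against 6 h. In the fit without 15 h, and in the weighted fit, RnrL was lower and RnrS higher at 48 h than at 6 h. The direction of RnrL depended on scaling, its change being 0.14 with library totals. Within a library, RnrS over RnrL per kb was 1.5 and 1.56 at 48 h, against 1.08 and 1.12 at 6 h.

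The origin recognition genes did not pass in any comparison with all 10 libraries weighted equally. In the weighted fit Orc4 and Orc5 were higher at 35 h and at 48 h than at 6 h, and Orc2 was lower at 48 h than at 35 h. Orc4 had the widest range of time means, with 602 and 534 at 6 h, 493 and 863 at 15 h, 699 and 761 at 25 h, 761 and 826 at 35 h, then 767 and 808 at 48 h. Its libraries from 25 h on all lay above those of 6 h, and its change was 0.47 (interval -0.10 to 1.05) at 48 h against 6 h. Orc5 had a difference of 0.32 (interval -0.18 to 0.81) and Orc1, an ATPase of the complex, of -0.06 (interval -0.52 to 0.39). Orc2 had a difference of -0.22 (interval -0.73 to 0.29) and Orc6 of -0.23 (interval -0.66 to 0.20) in the same comparison. Without the 15 h libraries Orc4 and Orc5 passed at 48 h against 6 h (adjusted p = 0.00411 and 0.00625), and the other 3 did not.

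The time of the highest mean varied among the genes. It was 35 h for 21 of the 36 genes, 25 h for 7 (Orc1, Orc2, Mcm2, dpa, Sld5, RfC38 and RnrS), 48 h for geminin, Cdk4, E2f1 and E2f2, 6 h for Cdc6, dup, Mcm10 and Rbf, and 15 h for none. Roles were split among these times. Of the G1/S drivers, Cdk4 and E2f1 peaked at 48 h and CycD, CycE, Cdk2 and Dp at 35 h. The brakes peaked at 48 h for E2f2, 35 h for dap and 6 h for Rbf. Licensing genes peaked at 48 h for geminin and at 6 h for Cdc6 and dup. These times were the same without the 15 h libraries, and most rest on differences that did not pass the test. Shares of all genes by time of highest mean are not given here, so the count of 21 is a description only. In the 35 h libraries the median of log2(signal + 1) minus the gene's mean was 0.16 and 0.14 over the 36. Over all genes tested it was -0.03 and -0.04.

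Levels of different genes can be compared per kb of exon. By this measure PCNA was highest, with a median over the 10 libraries of 3976 signal per kb (range 2912 to 4478), followed by RnrS at 2962, RPA2 at 2215, RnrL at 2194 and geminin at 1945. Ranges of neighbours in this order overlapped, but within every library PCNA lay above RnrS and RnrS above RPA2. RPA2 and RnrL changed order between libraries, so these neighbours were not separated. Mcm2, Mcm3, dpa, Mcm5 and Mcm6 lay at 1275 to 1586 and the 5 origin recognition genes at 314 to 471. GINS genes stood below those 5 MCM genes, at 119 for Psf3, 302 for Psf1, 360 for Psf2 and 513 for Sld5. Mcm7 stood at 395, but 81.7% of its exon bases are also covered by asRNA:CR45871 on the other strand; divided by the 448 bases free of that gene, its signal was 2158 per kb. Whether counting used strand is not given in the sources used here, so reads of overlapping genes could have been dropped or shared. Overlap also touched Cdk2 (43.9%), Psf3 (34.9%), RfC38 (25.2%), E2f2 (19.9%), Mcm10 (13.0%) and Orc5 (11.3%). The length used is the union of all annotated exons. It was 2380 bases for Psf3, against 692 for Psf1, 868 for Psf2 and 773 for Sld5.

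**Figure D5:**
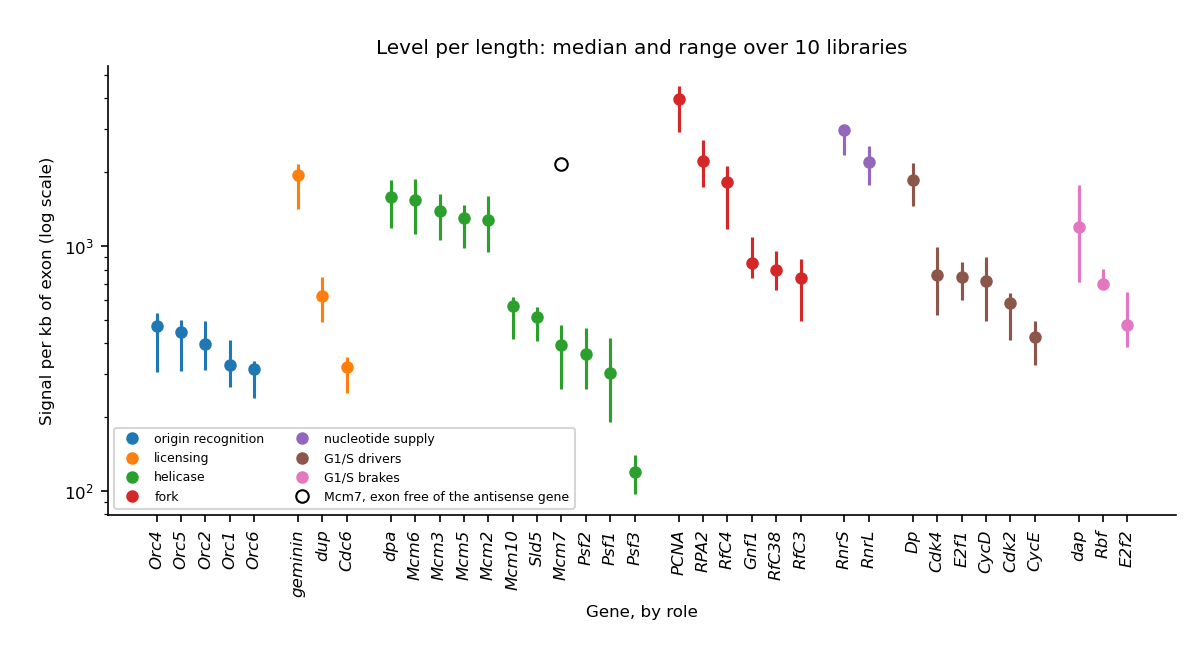
Signal per kb of exon on a log scale for each gene, grouped by role and coloured likewise; points are medians and lines the range over 10 libraries, and the open circle is Mcm7 divided by its exon bases free of the antisense gene (2158). PCNA is highest at 3976 and Psf3 lowest at 119.

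A further list held 45 other replication and G1/S genes, of which 42 passed the value rule. At 35 h against 6 h 5 rose (stg, CycA, chif, ago and asf1) and none fell, against 21.2% and 24.4% of all genes. At 48 h against 6 h 4 rose (ago, chif, mip130 and mus101) and 4 fell (dnk, DNApol-alpha50, pic and Cdc7), against 22.3% and 26.8%. The median change of the 42 was 0.19 at 35 h and 0.05 at 48 h, and no gene of the list passed between consecutive times in the limma fit with all 10 libraries weighted equally. DESeq2 called 3 at 48 h against 35 h (ago higher, stg and DNApol-alpha50 lower), and its count over all genes is given in the last paragraph. Without the 15 h libraries CycA and stg were higher at 35 h than at 25 h, against 10.0% of all genes. In that fit ago was higher at 48 h than at 35 h, against 4.73% of all genes. Lower were 8 (Claspin, DNApol-alpha180, DNApol-alpha50, DNApol-alpha60, RecQ4, asf1, dnk and stg), against 5.28% of all genes.

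The clearest of these was ago, a ubiquitin ligase subunit that marks cyclin E for destruction. Its mean signal was 8077 at 48 h and 4416 at 6 h, a change of 0.87 (SE 0.08, adjusted p = 0.000547) that held in all alternatives. The Dbf4-type activator gene chif averaged 4914 at 48 h and 2966 at 6 h, a change of 0.73 (SE 0.16, adjusted p = 0.0102), while its partner kinase gene Cdc7 fell to 636 at 48 h, against 824 at 6 h (-0.37, adjusted p = 0.047). The chif call ended without 6 h B, 48 h A or 48 h B (0.0533 to 0.0576), and the Cdc7 call ended with edgeR (0.173), with no filter (0.0550), with quantile normalization (-0.15, 0.574), with library total scaling (-0.06, 0.854) and without any single 6, 25, 35 or 48 h library (0.073 to 0.226). The mitotic phosphatase gene stg averaged 7324 at 35 h and 3998 at 6 h, a change of 0.87 (SE 0.19, adjusted p = 0.0118) lost without 6 h A, 35 h A or 35 h B (0.0638 to 0.0662). The deoxyribonucleoside kinase gene dnk averaged 1065 at 48 h and 1587 at 6 h, a change of -0.57 (SE 0.11, adjusted p = 0.00577) that held without each library in turn but was -0.26 with library total scaling (adjusted p = 0.426) and -0.45 with quantile normalization (0.0869).

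The other calls had changes of 0.69 (CycA), 0.51 (chif), 0.46 (ago) and 0.41 (asf1, a histone chaperone) at 35 h against 6 h. At 48 h against 6 h they were 0.54 (mip130, of the Myb complex), 0.49 (mus101), -0.36 (pic) and -0.47 (DNApol-alpha50, the small primase subunit). The ago call at 35 h ended without 35 h A (adjusted p = 0.0511), and each of the others was lost in several of the fits that left out 1 library. Library total scaling put pic at -0.05.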

How the data were processed

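Libraries were made from total RNA depleted of ribosomal RNA with a stranded kit, per the labels' protocols, although the labels name the molecule polyA RNA. The submitters' processing notes name STAR 2.7.10a, featureCounts without a version, and the builds dm6 and BDGP6. The deposited signal is a read count over a library's size factor, taken from the values: multiplied back, 100% of them were whole within 0.001 reads. Counting intervals were not used; precision comes from the 2 libraries per time.

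The members and gene lists were chosen with earlier results of these data known. The 10453 genes that reached 10 in 2 or more libraries were fitted together, adjusting across all genes, with limma 3.58.1 in R 4.3.3 on log2(signal + 1), with an intensity trend, 1 mean per time, 5 residual degrees of freedom (6.90 after moderation), two-sided, Benjamini-Hochberg over all genes, threshold 0.05; 2588 genes were left out. Adding 1 understates the change of low genes. Alternatives were a replicate block, a pseudocount of 10, no filter, quantile normalization, library total scaling, library weights, edgeR 4.0.16 and DESeq2 1.42.0 on the recovered reads, and leaving out each library or both at 15 h. Members past the threshold, and the member of widest range in each role without one, are given library by library; other-list genes past the threshold are named, except for a result that is not reported here. Coordinates and exon lengths are from the Ensembl BDGP6.54 annotation, in which 13000 genes of the table matched by ID and 29 by symbol (RPA2 was matched by symbol); 12 did not match. Promoter and protein sequences were not used here. Marker lists are named where their sums are given.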

Additional observations from a re-analysis of the deposited data

How the results depend on the processing

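None of the calls of single genes with all 10 libraries was reversed by any alternative run. Among members that did not pass, signs turned: with library total scaling 13 of 36 at 48 h against 6 h, 6 at 35 h against 6 h and 10 at 35 h against 25 h had the other sign, and with quantile normalization 6, 4 and 6; leaving out 15 h A turned 17 at 15 h against 6 h and 28 at 25 h against 15 h, and leaving out 15 h B turned 11 at 15 h against 6 h. With all 10 libraries no gene of the 36 passed between consecutive times in any of them except library weights. Library weights, which gave the 15 h libraries a weight of 0.127 and the others 1.04 to 2.68, raised the counts to 4 at 35 h against 25 h, 15 at 48 h against 35 h, 20 at 35 h against 6 h, 16 at 48 h against 6 h and 21 in the F test. Without both 15 h libraries the counts were 6, 8, 23 and 17 in those 4 comparisons. Leaving out 1 library at a time gave 0 to 20 genes at 15 h against 6 h, 0 to 32 at 25 h against 15 h, 0 to 6 at 35 h against 25 h, 0 to 8 at 48 h against 35 h, 3 to 23 at 35 h against 6 h, 2 to 17 at 48 h against 6 h and 1 to 32 in the F test. The highest counts came without a 15 h library; without any other the last 3 ranges were 3 to 5, 2 to 5 and 1 to 4. The F test called 1 gene with library total scaling and 3 with edgeR, against 5. A lone library left at a time is assumed to vary like the others. Shares of all genes are not given here for the weighted fit or for most fits that left out 1 library. Their counts therefore describe how stable the calls were and cannot be set against all genes. The cause of each move was not tested.

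Over all genes, edgeR called 4219 genes at 35 h and 4970 at 48 h against 6 h, DESeq2 5441 and 5776, and limma 4765 and 5130. Between consecutive times the tools differed more: at 15 h against 6 h limma called 441, edgeR 0 (2159 at an unadjusted p under 0.05) and DESeq2 1381; at 25 h against 15 h 14, 3 and 1170; at 35 h against 25 h 412, 151 and 1246; and at 48 h against 35 h 41, 10 and 569. With the replicate block those counts were 275, 4, 240 and 2, and 4655 and 4996 against 6 h; members called were 5 and 6, with Psf1 lost (0.0669) and RnrS gained at 35 h against 6 h; in the other list Cdc7 (0.0613) and pic (0.0530) were lost at 48 h against 6 h. The labels do not say whether the letters mark a shared batch. Correlations of the A minus B differences between times ran from -0.0585 to 0.161, 2 of 10 above 0.1, which cannot exclude one. Quantile normalization and library total scaling moved the median of all genes at 48 h against 6 h to 0.33 and 0.21, against -0.10, and that of the 36 genes to 0.16 and 0.33, against 0.02; higher against lower calls over all genes became 3538 and 1783, and 2211 and 2125, against 2332 and 2798.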
